A study of Mus musculus with 6 samples.

Results

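The genes described here encode the collagens, the laminins and the glycoproteins, proteoglycans and modifying enzymes of the extracellular matrix. They were chosen by gene name, as the collagen chains (Col), laminin chains (Lama, Lamb, Lamc), nidogens and perlecan, fibronectin, tenascins, thrombospondins, matrilins, fibulins, emilins, microfibril proteins (Mfap), latent TGF-beta binding proteins (Ltbp), periostin, SPARC proteins, small leucine-rich proteoglycans, versican and aggrecan with their link proteins (Hapln), glypicans (Gpc), syndecans (Sdc), Ecm proteins and the enzymes Loxl, P4ha, Plod and Lepre. Fbln5, Ltbp2 and Loxl1 were left out. Only genes annotated on the minus strand were taken, because all 19214 genes of the plus strand are listed at 0 in every culture. The rule found 50 genes of the 38483 listed. Another 76 genes with matching names lie on the plus strand, among them Col1a1, Col1a2, Col3a1, Dcn, Lum, Postn, Hspg2, Lamb1 and P4ha1, and nothing can be said about these.

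RNA sequencing was done on mouse embryonic fibroblasts (MEFs) of the CD1 strain, which are connective tissue cells grown from minced embryos. The 3 Nipbl+/- cultures carry a heterozygous knockout of Nipbl in every cell and serve as a mouse model of Cornelia de Lange syndrome (CdLS), and the 3 WT cultures came from littermates without the knockout. All 6 cultures were untreated and at passage 3, from embryos of a single pregnant mouse taken between embryonic days 14 and 15 after removal of limbs, brain and internal organs. Nipbl encodes a loader of the cohesin complex, and the comparison asks how its partial loss changes the transcripts of these fibroblasts. The sources do not say whether each culture came from its own embryo, so p-values measure the spread between cultures. Nipbl itself fell from 135.9 ± 8.25 to 100.7 ± 0.504 CPM (SD, n = 3 each), where CPM is the count scaled by the normalized library size, a log2 fold change of -0.43 with an adjusted p of 0.0213 in the quasi-likelihood test of edgeR.

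Total counts were between 20307454 and 25990783 per culture, and the 50 matrix genes took 4.60% to 5.23% of them. The markers of fibroblasts that have values (Col5a2, Col6a3, Fap and Prrx1; the other 11 lie on the plus strand) summed to 9993 to 12695 CPM in WT cultures and 9150.2 to 10542 CPM in Nipbl+/- cultures, most of it from Col5a2, which like Col6a3 is itself one of the 50 genes. Of the 2 markers outside the set, Fap had means of 29.3 CPM in WT and 45.5 CPM in Nipbl+/- cultures (edgeR adjusted p of 0.181) and Prrx1 of 321 and 261 CPM (0.0661), with the groups of both apart. The extraction protocol in the labels names mouse ES cells, while the cell type is given as MEFs. The 5 ES cell markers with values summed to 0.0464 to 0.181 CPM in WT cultures and 0.0477 to 0.115 CPM in Nipbl+/- cultures, and Lin28a and Tcl1 were at 0 throughout. WT replicates 1 and 2 and Nipbl+/- replicate 3 expressed the Y-linked gene Ddx3y, with 5240 to 5859 counts, and the other 3 cultures expressed Xist, with 7544 to 7882 counts. Among the WT cultures, WT replicate 2 had the lowest value of the genotype for 26 of the 42 matrix genes tested. WT replicate 3, the WT culture that expressed Xist, had the highest for 20 of them.

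The extracellular matrix is the protein and sugar scaffold that fibroblasts secrete. Collagens are trimers wound into a triple helix, which needs glycine at regular steps along the chain. Fibrillar collagens form the ropes of connective tissue, fibril-associated collagens coat them, and collagen VI makes beaded filaments around cells. Laminins and collagen IV build basement membranes, and adhesive glycoproteins such as fibronectin and the tenascins tie cells to the network. Because bulk RNA was measured, fewer cells of a type and less RNA per cell cannot be told apart.

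The repeat that defines the collagens can be read in the coding sequences. In the GENCODE M21 coding sequence (mm10), all 21 collagen genes among the 50 held at least 1 run of 10 or more triplets that begin with a glycine codon, and none of the 29 other genes did. These runs covered 73.3% of the codons of Col4a1, 71.5% of those of Col5a2, 31.9% of those of Col6a2, 29.3% of those of Col6a1 and 7.63% of those of Col12a1. Most of the length of collagen XII therefore lies outside the collagenous repeat. The first 5 triplets of the longest run are shown for the fibril-associated chain with the clearest change (Col12a1), for the most abundant fibrillar chain (Col5a2) and for a pair of chains of collagen VI, 5′ to 3′ on the minus strand with glycine codons in capitals. Each stretch crosses an exon junction, so its coordinates include an intron.
Col12a1, exons 56 and 57, chr9:79612934-79613769: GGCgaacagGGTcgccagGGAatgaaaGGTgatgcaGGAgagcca
Col5a2, exons 8 and 9, chr1:45423691-45426996: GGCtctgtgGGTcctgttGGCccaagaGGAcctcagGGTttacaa
Col6a1, exons 8 and 9, chr10:76719668-76720996: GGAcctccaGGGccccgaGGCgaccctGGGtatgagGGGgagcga
Col6a2, exons 5 and 6, chr10:76611993-76613290: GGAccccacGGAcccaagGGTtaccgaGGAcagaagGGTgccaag

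Levels of different genes were compared as the deposited RPKM, which scales the count by gene length. Fibronectin (Fn1) was the most abundant of the 50 genes, with a mean RPKM of 1942 over the 6 cultures. Sparc, a collagen-binding matricellular protein, followed at 1321 RPKM, and Col5a2, a chain of the fibrillar collagen V, at 1001 RPKM. Tnc (tenascin-C) reached 588 RPKM, and Col4a1, the collagen IV chain of basement membranes, 349.6 RPKM. Col12a1 was sixth at 272 RPKM. Next came the matricellular gene Thbs2 at 213 RPKM and the short-chain collagen Col8a1 at 203 RPKM, whose cultures overlapped in range. At the other end, Col13a1 and Emilin3 were listed at 0 in all cultures, and 45 of the 50 genes had counts in every culture.

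**Figure D1:**
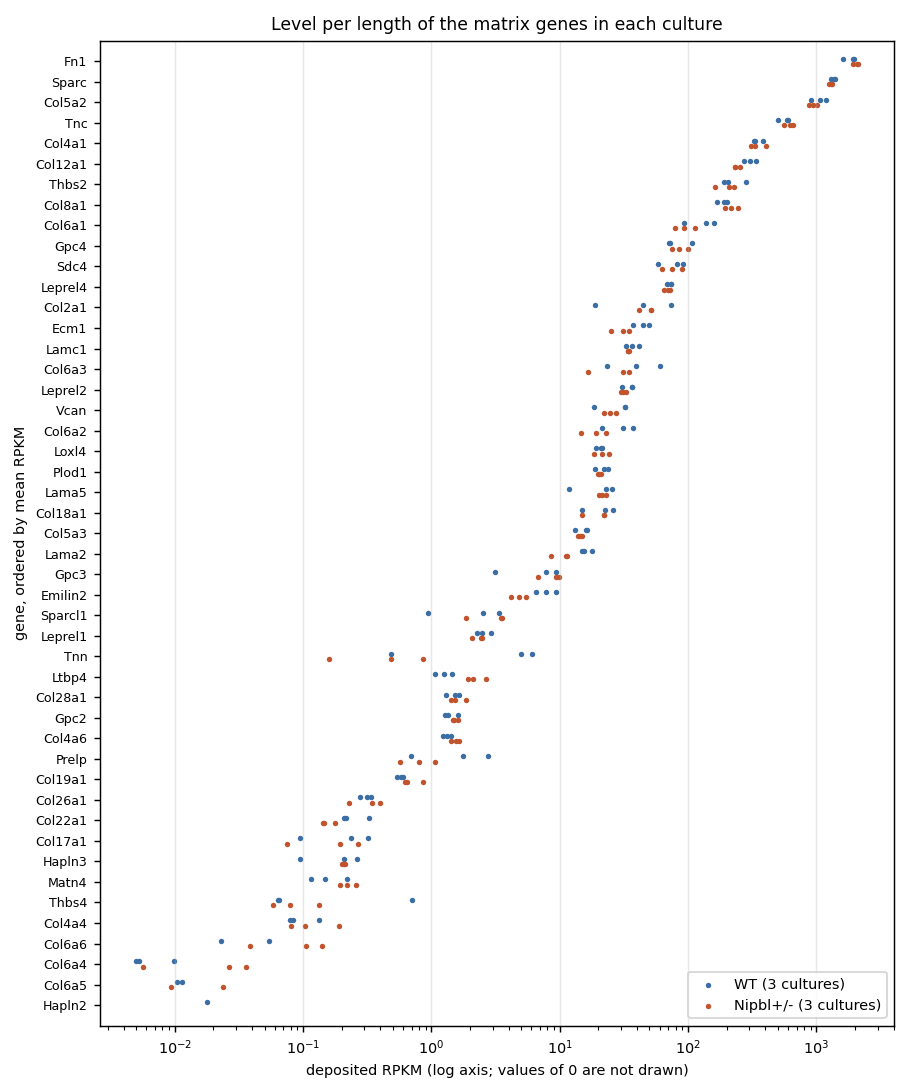
RPKM (log axis) of the matrix genes reported here, in the 3 WT (blue) and 3 Nipbl+/- (red) cultures, with genes ordered by the mean over the 6 cultures and values of 0 left out. Levels run from Fn1, at a mean of 1942, to genes under 0.01, and for most genes the points of the genotypes lie within each other's range, while those of Tnn, Prelp and Thbs4 spread widely within WT.

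Of the 50 genes, 42 had enough counts for the test, which ran over all 9061 genes that passed the filter. After Benjamini-Hochberg adjustment over these 9061 genes (threshold 0.05), 3 of the 42 matrix genes fell in Nipbl+/- MEFs, namely Emilin2, Lama2 and Col12a1, against 0.916% of all tested genes called lower. Only Ltbp4 rose among the 42, against 1.04% of all tested genes called higher. At an unadjusted p under 0.05, 12 matrix genes were lower and 1 was higher, against 7.95% and 8.98% of all tested genes. In 7 matrix genes all 3 Nipbl+/- cultures lay below all 3 WT cultures, and in 2 all lay above, where 10.8% and 12% of all tested genes do so. The log2 fold change was below 0 in 25 of the 42 and above 0 in 17, with a median of -0.11 beside -0.0057 over all tested genes. With both directions added, the 9 of 42 matrix genes with groups apart are close to the share over all tested genes. By direction, the 7 lower genes are above the share of 10.8% and the 2 higher genes below that of 12%. This split was not tested. The median was alike in the 17 tested collagen chains (median -0.12, 10 below 0) and in the 25 other genes (median -0.11, 15 below 0).

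**Figure D2:**
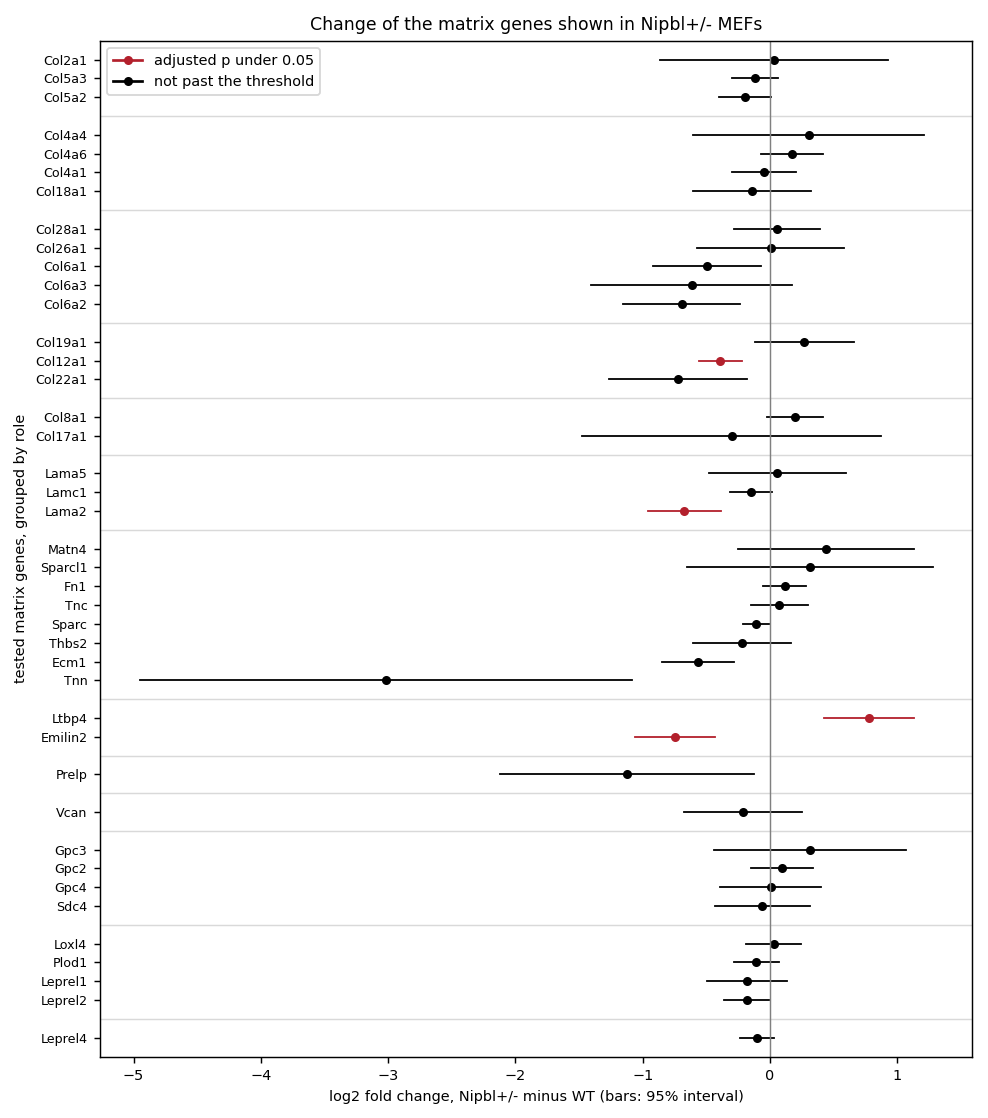
Log2 fold change of Nipbl+/- against WT for 41 of the 42 tested matrix genes, with 95% intervals as bars and genes grouped by role (fibrillar, basement membrane, beaded filament, fibril-associated and short-chain collagens; laminins; adhesive glycoproteins; microfibril proteins; Prelp; Vcan; heparan sulfate proteoglycans; enzymes; Leprel4). The 4 genes past the threshold, Col12a1, Lama2, Emilin2 and Ltbp4, are in red, and the interval of Tnn is the widest, from -4.95 to -1.09.

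Among the fibril-associated collagens, Col12a1 fell in Nipbl+/- MEFs. Collagen XII coats collagen I fibrils and links them to other matrix proteins. The gene (ENSMUSG00000032332, chr9:79598991-79718831, mm10) was at 4963, 4389.7 and 5271 CPM in WT replicates 1 to 3 and at 3979.5, 3629.6 and 3532 CPM in Nipbl+/- replicates 1 to 3. The highest Nipbl+/- culture was below the lowest WT culture, WT replicate 2. The log2 fold change was -0.39 (SE 0.074, edgeR adjusted p of 0.0422), and the level fell by 23.8%. Col22a1, known from tissue junctions such as that of muscle and tendon, was low, with a mean of 2.40 ± 0.575 CPM in WT cultures and 1.45 ± 0.150 CPM in Nipbl+/- cultures (SD, n = 3). Its groups did not overlap, and it did not pass the threshold (log2 fold change -0.73, edgeR adjusted p of 0.168). Col19a1 lay the other way, at 4.13 ± 0.190 CPM in WT cultures and 4.99 ± 0.951 CPM in Nipbl+/- cultures, with an interval of the log2 fold change from -0.12 to 0.66.

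The beaded filament collagens hold the chains of collagen VI. Col6a1 and Col6a2 lie 85161 bases apart on chromosome 10, and Col6a3 lies on chromosome 1. None of the 3 passed the threshold, although their log2 fold changes were among the lowest of the collagens. Col6a2 was at 277, 188 and 315 CPM in WT cultures and 165, 126 and 192 CPM in Nipbl+/- cultures. WT replicate 2 was the exception that made the groups overlap, since the other WT cultures were above every Nipbl+/- culture. The log2 fold change of Col6a2 was -0.70 (SE 0.20, edgeR adjusted p of 0.125). Col6a1 was at 649.7, 429 and 711 CPM in WT cultures and 419, 355 and 496 CPM in Nipbl+/- cultures, with the same culture low (log2 fold change -0.50, SE 0.18, edgeR adjusted p of 0.227). With each culture left out in turn, Col6a2 ranged from -0.53 to -0.88 (edgeR adjusted p from 0.0302 to 0.328) and Col6a1 from -0.35 to -0.69 (0.0342 to 0.485). Both passed the threshold in 1 of these 6 fits, the one without WT replicate 2, which is the culture whose removal parts the groups. The smallest differences of both were those without WT replicate 3, their highest WT culture. Of 11 other fits on the 6 cultures, Col6a2 passed in 3 and Col6a1 in 0. Col6a3 varied more, at 498, 295 and 743 CPM in WT cultures and 203, 426 and 374 CPM in Nipbl+/- cultures, and its interval ran from -1.41 to 0.17. Col28a1 and Col26a1 had log2 fold changes of 0.06 and 0.0049.

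The other collagen VI chains, Col6a4, Col6a5 and Col6a6, lie next to each other on chromosome 9 and were too low to test. Col6a6 had 4, 0 and 9 counts in WT and 24, 21 and 6 counts in Nipbl+/- replicates 1 to 3. Col6a4 had 1 or 2 counts in each WT culture and 7, 6 and 1 counts in the Nipbl+/- cultures. Col6a5 had no more than 4 counts in any culture. These counts are so small that no order of the genotypes can be read from them.

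The deposited RPKM allow the chains of collagen VI to be set against each other within a culture. The ratio of Col6a1 to Col6a2 was 4.45, 4.34 and 4.29 in WT and 4.84, 5.36 and 4.92 in Nipbl+/- cultures. The spread within a genotype was small beside that of either gene, and the groups did not overlap. This was one of 6 ratios computed, chosen after the values were known, of which 3 separated the groups. The exact two-sided permutation test gave p = 0.1, the smallest that 3 against 3 cultures allow, or 0.2 after adjustment over the 6. The ratio of Col6a1 to Col6a3 ranged from 2.61 to 3.97 in WT and from 2.28 to 5.64 in Nipbl+/- cultures.

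The fibrillar collagens with values were Col5a2, Col5a3 and Col2a1, and none passed the threshold. Col5a2, a regulator of fibril diameter as part of collagen V, was at 10619.6 ± 1186 CPM in WT cultures and 9260.3 ± 793 CPM in Nipbl+/- cultures (SD, n = 3), with an interval of the log2 fold change from -0.40 to 0.01. Col5a3 had a log2 fold change of -0.12. Col2a1, the main collagen of cartilage, was detected at 471, 119 and 274 CPM in WT cultures and 318, 255 and 310 CPM in Nipbl+/- cultures. Its widest difference was between WT cultures, and without WT replicate 2 or WT replicate 1 its log2 fold change was -0.34 or 0.58. The 5 chondrocyte markers with values (Ihh, Lect1, Pth1r, Sox5 and Sox6) summed to 15.2 to 29.2 CPM in WT cultures and 22.2 to 26.3 CPM in Nipbl+/- cultures, with Lect1 at 0, and their part in the Col2a1 values was not tested.

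In the basement membrane and multiplexin group, Col4a1 was at 2509 ± 266 CPM in WT cultures and 2429 ± 353 CPM in Nipbl+/- cultures, with an interval of the log2 fold change from -0.30 to 0.20. Its partner chain Col4a2 lies on the plus strand and overlaps it. Col18a1, the source of the fragment endostatin, was at 156 ± 39.0 CPM and 141 ± 28.9 CPM. Col4a6 and Col4a4, both of them minor chains, had log2 fold changes of 0.17 and 0.30, and the interval of Col4a4 reached from -0.61 to 1.21. Of the short-chain and transmembrane collagens, Col8a1 was at 1000.2 ± 83.4 CPM in WT cultures and 1145 ± 146 CPM in Nipbl+/- cultures (log2 fold change 0.19, edgeR adjusted p of 0.346), and the hemidesmosome collagen Col17a1 stayed under 2 CPM.

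Of the laminin chains, Lama2 fell. It encodes the alpha 2 chain of the laminin found around muscle fibres and Schwann cells, and its loss causes a congenital muscular dystrophy. Lama2 (ENSMUSG00000019899, chr10:26981288-27616942) was at 153, 185 and 153 CPM in WT cultures and 112, 113 and 83.2 CPM in Nipbl+/- cultures. The groups were apart, with Nipbl+/- replicate 3 the lowest and, unlike for collagen VI, WT replicate 2 the highest. The log2 fold change was -0.67 (SE 0.13, edgeR adjusted p of 0.0413), and the level fell by 37.3%. Markers of the cell types that laminin surrounds were low in both genotypes, with 7 skeletal muscle markers summing to 11.3 to 15.6 CPM in WT cultures and 12.7 to 15.01 CPM in Nipbl+/- cultures, and 4 neural and Schwann markers to 1.63 to 2.85 and 2.57 to 4.01 CPM.

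No other laminin chain passed the threshold. Lama5, an alpha chain of basement membranes, was at 239 ± 85.3 CPM in WT cultures and 249 ± 19.9 CPM in Nipbl+/- cultures, with WT replicate 2 at 142 CPM below all others. Lamc1, the common gamma chain, was at 320.4 ± 31.4 CPM and 289 ± 6.69 CPM (log2 fold change -0.15, interval -0.31 to 0.02). The RPKM ratio of Lamc1 to Lama2 was 2.33 ± 0.448 in WT and 3.36 ± 0.532 in Nipbl+/- cultures, and that of Lama2 to Lama5 was 0.648, 1.54 and 0.600 in WT and 0.490, 0.531 and 0.426 in Nipbl+/- cultures, with WT replicate 2 far above the others. These are the other 2 of the 6 ratios whose groups did not overlap. Each had an exact permutation p of 0.1, or 0.2 after adjustment over the 6. With 3 against 3 cultures any ratio whose groups are apart gets this permutation p of 0.1, so it adds nothing to the separation. Both ratios hold Lama2, so they are not independent of its lower call. The beta chains Lamb1 and Lamb2 lie on the plus strand, so no whole trimer can be followed.

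**Figure D3:**
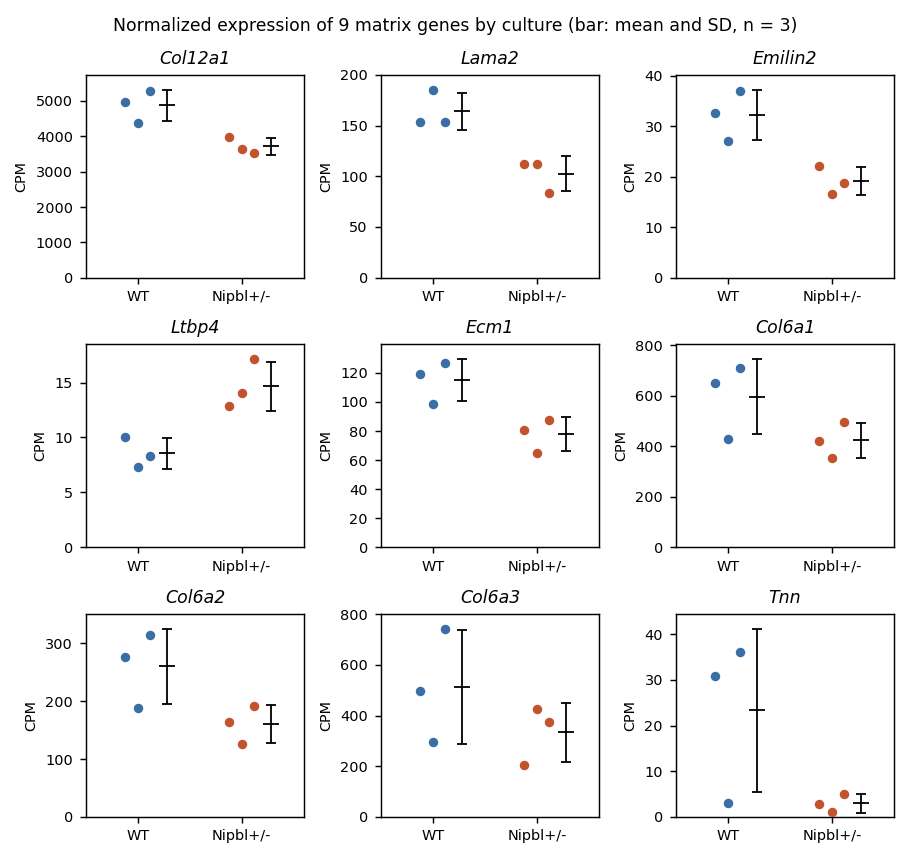
Normalized expression in CPM (linear axis from 0) of Col12a1, Lama2, Emilin2, Ltbp4, Ecm1, Col6a1, Col6a2, Col6a3 and Tnn, with 1 point for each culture, replicates 1 to 3 from left to right, and the mean with its SD (n = 3) beside them. For Col12a1, Lama2, Emilin2 and Ecm1 every Nipbl+/- point lies below every WT point, for Ltbp4 every one lies above, and for collagen VI and Tnn the middle WT point, replicate 2, lies among or near the Nipbl+/- points.

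The microfibril and elastic fibre group held the strongest changes in either direction that passed the threshold. Emilin2, an elastin microfibril interface protein, fell. Its gene (ENSMUSG00000024053, chr17:71252176-71310965) was at 32.7, 27.0 and 37.0 CPM in WT cultures and 22.2, 16.6 and 18.8 CPM in Nipbl+/- cultures. No Nipbl+/- culture reached the lowest WT culture, and the log2 fold change was -0.75 (SE 0.14, edgeR adjusted p of 0.0393), and the level fell by 40.5%. Ltbp4, which binds latent TGF-beta and takes part in elastic fibre assembly, rose. Its gene (ENSMUSG00000040488, chr7:27305136-27337692) was at 10.0, 7.30 and 8.30 CPM in WT cultures and 12.8, 14.02 and 17.1 CPM in Nipbl+/- cultures. Every Nipbl+/- culture was higher than every WT culture, and the log2 fold change was 0.78 (SE 0.15, edgeR adjusted p of 0.0469), or 71.6% higher. The remaining gene of the group is Emilin3, at 0 throughout.

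The 4 calls are close to the threshold. They held in most of 11 other fits on the 6 cultures, Emilin2 and Lama2 in 11, Ltbp4 in 10 and Col12a1 in 9, and the direction of all 4 was kept with each culture left out. With 2 cultures against 3, Emilin2 (-0.86, edgeR adjusted p of 0.0204) and Col12a1 (-0.46, 0.0183) passed without WT replicate 2, and no gene of the 4 passed without any of the other 5 cultures, where adjusted p-values ran up to 0.146 for Emilin2, 0.119 for Lama2, 0.153 for Col12a1 and 0.119 for Ltbp4. The lower calls among the matrix genes numbered 7 without WT replicate 2 (Col12a1, Emilin2, Ecm1, Col6a1, Col6a2, Prelp and Tnn) and 0 without WT replicate 1, WT replicate 3 or any 1 of the Nipbl+/- replicates. No higher call was left without any 1 of the cultures. With the Xist level as a covariate the same 4 genes were called. No other counted gene of the minus strand overlaps them. Col12a1, Lama2 and Emilin2 each overlap a plus-strand gene listed at 0, whose reads could not be told apart if strand was ignored in counting.

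**Figure D4:**
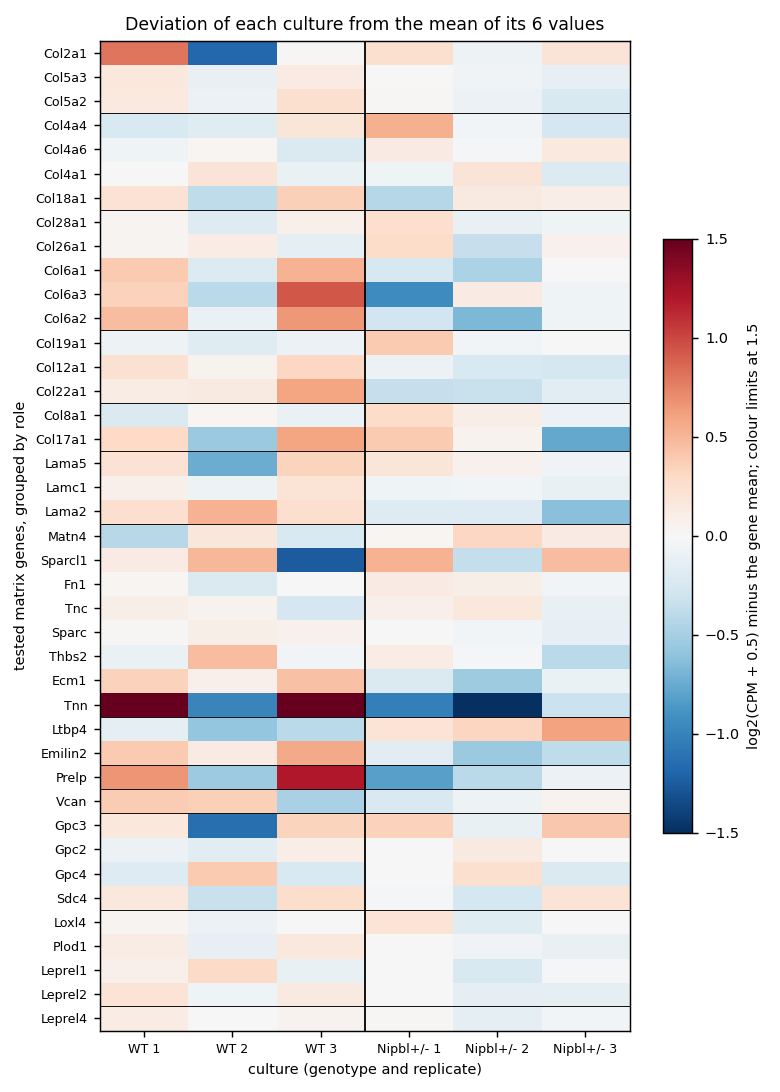
Each culture's log2(CPM + 0.5) minus the mean of the 6 cultures for 41 of the 42 tested matrix genes, from blue (below) to red (above) with colours limited at 1.5, grouped by role as in the plot of changes. Rows such as Col12a1, Lama2 and Emilin2 change colour at the line between the genotypes, whereas in Tnn, Prelp, Gpc3 and Col2a1 the WT replicate 2 column differs from the other WT columns.

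For 3 of the called genes the RefSeq promoter table (GRCm38.p6) holds the start site. It matched 37 of the 50 matrix genes. RefSeq lists 3 starts for Ltbp4, 2 for Emilin2 and 1 for Lama2, and which start these cells use was not tested. The 120 bases before the start nearest to the gene end in the files are shown, because these genes are the ones the comparison turns on, 5′ to 3′ on the minus strand, with searched motifs in capitals.
Lama2, chr10:27616943-27617062: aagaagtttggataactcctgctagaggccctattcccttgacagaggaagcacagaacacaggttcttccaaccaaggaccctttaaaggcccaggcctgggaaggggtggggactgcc
Emilin2, chr17:71311012-71311131: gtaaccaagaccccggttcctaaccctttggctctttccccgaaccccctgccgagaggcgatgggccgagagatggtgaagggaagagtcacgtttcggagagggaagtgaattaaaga
Ltbp4, chr7:27337613-27337732: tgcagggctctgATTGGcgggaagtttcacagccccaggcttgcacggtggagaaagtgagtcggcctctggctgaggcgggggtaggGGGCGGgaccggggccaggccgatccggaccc
The motifs searched, on both strands of the 250 bases before the start, were the TATA box (TATAAA), the CCAAT box (CCAAT), the GC box (GGGCGG) and the AP-1 site (TGACTCA), and no match of one of them can cover a match of another in full. The stretch of Ltbp4 holds CCAAT, read here on the other strand, and GGGCGG. Emilin2 has GGGCGG farther upstream, and Lama2 has none of the motifs. GGGCGG was in 21 of the 37 matrix promoters (56.8%) and in 32.7% of all 32851 windows of the table. The median share of G and C was 58.8% in the matrix promoters and 52.4% in all windows. Each matrix gene gave 1 window, whereas all windows can hold several of a gene. The part of these differences in the motif shares was not tested. TATAAA was in 7 (18.9%, against 12.4%), CCAAT in 14 (37.8%, against 33.8%) and TGACTCA in 2 (5.41%, against 4.46%). A match is a description of letters and not of a bound site.

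The adhesive and matricellular glycoproteins included the largest difference in the set, which did not pass the threshold. Tnn (tenascin-N, also called tenascin-W, a glycoprotein of developing bone and tumour stroma) was at 30.9, 2.98 and 36.2 CPM in WT cultures and 2.88, 0.955 and 5.01 CPM in Nipbl+/- cultures. WT replicate 2 was at the level of the Nipbl+/- cultures, and the log2 fold change of -3.02 had a standard error of 0.84 (edgeR adjusted p of 0.114). With each culture left out in turn it ranged from -2.56 to -3.64 (edgeR adjusted p from 0.0117 to 0.301) and passed in 1 of 6 fits, the one without WT replicate 2, the low WT culture. Of the 11 other fits on the 6 cultures, 4 called Tnn. Ecm1, a secreted protein that binds matrix proteases and perlecan, was at 119, 98.9 and 127 CPM in WT cultures and 80.9, 64.7 and 87.7 CPM in Nipbl+/- cultures. Its groups were apart and its adjusted p just missed the threshold (log2 fold change -0.57, SE 0.12, edgeR adjusted p of 0.0626). Ecm1 ranged from -0.45 to -0.66 with each culture left out in turn (edgeR adjusted p from 0.0314 to 0.209). It passed in 1 of these 6 fits, the one without WT replicate 2, and in 5 of the 11 other fits on the 6 cultures.

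The most abundant glycoproteins with values differed little. Fn1 was at 16022 ± 1449 CPM in WT cultures and 17353 ± 1059 CPM in Nipbl+/- cultures (log2 fold change 0.12, interval -0.05 to 0.28). Sparc was at 4782 ± 113 CPM and 4429.6 ± 174 CPM, with groups that did not overlap but a log2 fold change of only -0.11 (interval -0.21 to -0.01, edgeR adjusted p of 0.267). Tnc had a log2 fold change of 0.07 (interval -0.15 to 0.30) and Thbs2, an inhibitor of vessel growth, of -0.22 (interval -0.61 to 0.17). The intervals of Fn1 and Tnc end short, in size, of the estimates for Lama2 (-0.67) and Emilin2 (-0.75). The intervals of Lama2 and Emilin2 come as near to 0 as -0.39 and -0.43. Sparcl1 and Matn4 were low and their intervals crossed 0. Thbs4, which was not tested, had 51 counts in WT replicate 3 and 4 to 10 counts in the other 5 cultures.

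Few proteoglycans could be measured. Prelp, the only one on the minus strand of the 7 small leucine-rich proteoglycans that the rule names (Dcn, Lum, Bgn, Ogn, Fmod, Prelp and Aspn), was at 6.80, 2.67 and 10.1 CPM in WT cultures and 2.12, 2.98 and 3.87 CPM in Nipbl+/- cultures. As for Tnn, WT replicate 2 lay among the Nipbl+/- cultures (log2 fold change -1.13, SE 0.44, edgeR adjusted p of 0.246), and when cultures were left out singly the value ranged from -0.67 without WT replicate 3 to -1.502 without WT replicate 2 (edgeR adjusted p of 0.450 and 0.0329), the second being the 1 fit of 6 that passed. Vcan (versican, which binds hyaluronan) was at 422 ± 128 CPM and 364 ± 36.5 CPM, with WT replicate 3 lowest at 274 CPM. Its log2 fold change of -0.21 was -0.00052 with the Xist level as a covariate, and with a culture left out it ranged from -0.0784 without WT replicate 1 to -0.45 without WT replicate 3, in no case past the threshold. Its link protein relatives Hapln2 and Hapln3 had at most 9 counts in a culture. Of the cell surface heparan sulfate proteoglycans, Gpc4 (232 ± 59.5 and 233 ± 37.0 CPM) and Sdc4 (205 ± 42.6 and 197 ± 32.2 CPM) had mean levels within 1 SD of each other. Gpc3, a growth regulator that is mutated in an overgrowth syndrome and lies beside Gpc4 on the X chromosome, was at 22.5, 8.94 and 25.6 CPM in WT cultures and 25.7, 18.6 and 26.7 CPM in Nipbl+/- cultures, with WT replicate 2 far below the other 5 cultures.

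The enzymes that modify collagen showed small differences. Leprel2, a prolyl 3-hydroxylase, was at 143 ± 13.4 CPM in WT cultures and 126 ± 6.64 CPM in Nipbl+/- cultures (log2 fold change -0.18, edgeR adjusted p of 0.280). Its relative Leprel1 had a log2 fold change of -0.18. Leprel4, which matches by name and was not grouped with the enzymes, had one of -0.10. Plod1, a lysyl hydroxylase, and Loxl4, a lysyl oxidase relative that cross-links collagen, had values of -0.11 (interval -0.29 to 0.07) and 0.03 (interval -0.19 to 0.24). None of these 5 genes passed the threshold.

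Genes of collagen folding, secretion and processing outside the set were read from a separate list, of which 15 lie on the minus strand and 14 were tested. Adamts14, a procollagen N-propeptidase, rose from 17.4, 15.5 and 14.2 CPM in WT to 22.6, 26.7 and 25.9 CPM in Nipbl+/- cultures (log2 fold change 0.68, SE 0.10, edgeR adjusted p of 0.0234), and no gene of the list was called lower. Adamts3, a relative of Adamts14, had the largest log2 fold change, 0.75, and did not pass (edgeR adjusted p of 0.164). Lox, the main collagen cross-linking oxidase, had the lowest at -0.35, with 5967 ± 670 CPM in WT cultures and 4679 ± 417 CPM in Nipbl+/- cultures (edgeR adjusted p of 0.0920). All Nipbl+/- cultures of Lox lay below all WT cultures, and it did not pass the threshold. Of the 7 collagen and laminin receptors tested, none passed. The laminin receptor Bcam had the highest log2 fold change, 0.51, and the collagen receptor subunit Itga2 the lowest, -0.49, with edgeR adjusted p-values of 0.118 and 0.383.

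Markers of other cell types were read beside these values. The 11 macrophage markers with values summed to 59.9 to 79.1 CPM in WT cultures and 94.8 to 190 CPM in Nipbl+/- cultures, none of them past the threshold, with a median log2 fold change of 1.04. The 5 smooth muscle markers summed to 8374 to 9641 CPM and 9249.6 to 10125 CPM, and 1 of them, Smtn, was called (0.32, higher). The 6 endothelial markers summed to 69.3 to 104 CPM and 70.9 to 93.3 CPM, and the 6 epithelial markers, with Esrp1 at 0, to 0.835 to 1.78 CPM and 2.29 to 3.01 CPM. Mkx, the only tendon marker with values, was at 21.7 to 24.2 CPM and 18.8 to 19.1 CPM. Sums of the macrophage, epithelial and tendon markers did not overlap between the genotypes, and their part in the changes of the matrix genes was not tested.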

How the data were processed

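RNA of 3 WT and 3 Nipbl+/- MEF cultures was depleted of rRNA and sequenced. The authors aligned reads with TopHat2 2.0.10 to mm10 with the Ensembl annotation, and the counting tool is not given in the sources used here. The deposited files hold a raw read count and an RPKM value for each gene, and the RPKM were used only for levels and ratios. The counts were filtered with filterByExpr (minimum count 10), scaled by TMM and compared between genotypes in edgeR 4.0.16 (quasi-likelihood test, R 4.3.3), without covariates, with Benjamini-Hochberg adjustment over all tested genes. Standard errors were derived from the fold change and the F statistic. The steps were tried on counts simulated with the dispersions of this same fit, and the outcome is not given here. The dispersion between replicates exceeded counting noise, so the number of cultures limits the precision. DESeq2 1.42.0, limma 3.58.1 (voom) and the other alternatives are given below. The genes named were Nipbl, the genes past the threshold, the 8 with the smallest p and, by role, the gene with the largest change and the 2 with the highest RPKM. Other members were named after their values were seen. The members and lists were chosen with earlier results of these data known. The values of 1 member are not reported here, and it stays in the counts.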

Additional observations from a re-analysis of the deposited data

How the results depend on the processing

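The median log2 fold change of the matrix genes kept its sign in all 17 alternatives. The lower calls among them numbered 6 with edgeR's exact test, 6 with its likelihood ratio test, 5 without a filter on low counts and 5 with a replicate block, and 0 to 7 with each culture left out. The higher calls numbered 1 except for 0 with the replicate block and 0 with each culture left out. Same-numbered cultures did not deviate together (correlations of -0.06, -0.04 and -0.14), and other pairs ranged from -0.07 to 0.12. With 3 cultures per genotype, this cannot decide whether the numbers mark a pairing, and the sources name none. With the block, the lower calls were Col6a2, Ecm1, Emilin2, Lama2 and Tnn, and Ltbp4 was not called (adjusted p of 0.0904). Over all genes, 94 were called higher and 83 lower. The exact test gave 219 and 213, the likelihood ratio test 224 and 218, DESeq2, which also used its own filter over 13482 genes, 230 and 206, no filter (13482 genes) 173 and 152, the block 34 and 52, library size alone 142 and 70, and leaving out a culture 1 to 130 and 2 to 138. Gene values that changed sign with a culture left out ranged from -0.69 to 0.0634 for Col17a1, -0.33 to 0.0148 for Col18a1, -0.34 to 0.58 for Col2a1, -0.17 to 0.0407 for Col4a1, -0.13 to 0.55 for Col4a4, -0.0268 to 0.59 for Gpc3, -0.12 to 0.23 for Gpc4, -0.21 to 0.25 for Lama5, -0.0820 to 0.12 for Loxl4 and -0.22 to 0.0570 for Sdc4. Gpc4 was at -0.00833 with upper-quartile normalization and Lama5 at -0.0389 with the Xist level as a covariate. The cause was not tested. Among medians of the role groups, 10 of 221 values moved.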
